A study of Mus musculus with 5 samples.

Results

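The genes described here are the 9 fatty acid synthesis genes Fasn, Acaca, Scd1, Scd2, Elovl6, Srebf1, Me1, Acly and Thrsp, chosen by name from the 31053 genes of the files and read in hepatocytes, the main cell type of the liver. The data are unique molecular identifier (UMI) counts from 5 droplet single-cell RNA libraries of C57BL/6J mouse liver, 1 library per group: unoperated mice at postnatal day 14 (P14), an adult control, and adults sampled 24 h, 48 h or 96 h after surgery at 8 weeks of age. The surgery was partial hepatectomy (PHx), in which part of the liver is taken out and the remnant grows back. One protocol line counts the adult control among the operated animals, while its title, source and age name it a control, and it is used here as the control. The labels give neither sex nor number of animals, feeding state or time of day. A code in the sample descriptions differs between the adult control and the other 4 libraries, so whatever it stands for cannot be told apart from the control condition.

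Fatty acid synthesis turns surplus carbohydrate into lipid, and in the liver it is high in the fed state and low in fasting. Citrate exported from mitochondria is split by ATP citrate lyase (Acly) into acetyl-CoA, which acetyl-CoA carboxylase (Acaca) makes into malonyl-CoA and fatty acid synthase (Fasn) joins into palmitate with NADPH supplied in part by malic enzyme (Me1). The elongase Elovl6 lengthens palmitate to stearate, and the desaturases Scd1 and Scd2 put in a double bond. Srebf1 encodes the transcription factor SREBP-1, which responds to insulin and acts on genes of the pathway, and Thrsp encodes Spot 14, a small protein tied to lipogenesis and thyroid hormone.

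A barcode was counted as a hepatocyte when it held at least 5000 UMIs, 10% to 30% of them mitochondrial, and at least 1% of them from Alb, Apoa1 and Ttr, which encode plasma proteins that hepatocytes secrete. This left 2106 cells in P14, 1170 cells 24 h after PHx, 719 after 48 h, 771 after 96 h and 925 in the control, together 5691 of the 14704 barcodes of that depth. Median depth per hepatocyte lay between 18527 and 38922.5 UMIs, and 3 hepatocyte barcodes occurred in more than 1 library. The Alb, Apoa1 and Ttr share had medians of 2.10% to 5.77% in the adult libraries and 11.2% in P14. Markers of other cells differed in level: summed over their lists, T or NK cell genes reached at most 22.2 CPM (UMI counts scaled to the non-mitochondrial UMIs of all hepatocytes of the library), endothelial genes 22.8 CPM and monocyte or macrophage genes 13.8 CPM. Mesenchymal genes summed to 4.32 to 46.9 CPM, neutrophil genes to 11.5 to 196 CPM, cholangiocyte genes to 150 to 335 CPM with Krt19 at 0 in the 4 adult libraries, and erythroid genes to 125 to 763 CPM. The 7 adipocyte genes summed to 272 CPM in P14, 195 CPM 24 h after PHx, 283 CPM after 48 h, 2576 CPM after 96 h and 2591 CPM in the control, nearly all of it Car3. Of the other adipocyte genes, Adrb3 was at 0.410 to 3.13 CPM, and Lep and Plin1 were at 0 UMIs in all 5 libraries. In the control, where Car3 was at 2589 CPM, Adipoq, Retn and Cidea were at 0 UMIs as well. Erythroid genes summed to 125 CPM in P14 and 740 CPM in the control. They were at 523 CPM at 24 h after PHx, 763 CPM at 48 h and 331 CPM at 96 h. In P14, 6 of the 6 erythroid genes with at least 5 CPM there or in the control were at least 2-fold lower. The part of these markers of other cells in the results was not tested. At least 3 markers of another cell class were seen in 221 of the P14 hepatocytes, 752 of the control, 775 of the 24 h, 680 of the 48 h and 375 of the 96 h hepatocytes, and these cells were kept. Free RNA, read from empty droplets, was estimated at 9.19% of non-mitochondrial hepatocyte UMIs in the adult control and at 0.977% to 4.44% in the others. With 1 library per group no test between groups was possible, and the 95% intervals given below cover counting error only, not differences between animals.

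The genes lie on chromosomes 3, 7, 9, 11 and 19 (mm10). Acly (chr11:100476353-100528000), Fasn (chr11:120805846-120824547) and Srebf1 (chr11:60199089-60222581) are on the minus strand, while Acaca (chr11:84129672-84401651) is on the plus strand of the same chromosome. Elovl6 spans chr3:129532355-129638495 (plus strand), Me1 chr9:86581371-86695953 (minus) and Thrsp chr7:97412938-97417730 (minus). The desaturase genes Scd1 (chr19:44394455-44407879, minus) and Scd2 (chr19:44293674-44306864, plus) are neighbours. No other counted gene overlaps a member on its own strand in GENCODE M21. Acaca, Elovl6, Srebf1 and Me1 overlap genes on the opposite strand, and whether counting used the strand is not given in the sources used here.

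RefSeq promoters of 300 bases (250 before and 50 after the start site, GRCm38.p6) were found for 7 of the 9 genes, and those of the enzymes and Thrsp whose levels were low in the same libraries are printed here so that their motifs can be compared. Capitals mark matches on either strand to CCAAT (NF-Y box) or GGGCGG (GC box). CCAAT occurred in 37.4% and GGGCGG in 35.7% of all 32851 promoters of this length.
Fasn, chr11:120824498-120824797, minus strand: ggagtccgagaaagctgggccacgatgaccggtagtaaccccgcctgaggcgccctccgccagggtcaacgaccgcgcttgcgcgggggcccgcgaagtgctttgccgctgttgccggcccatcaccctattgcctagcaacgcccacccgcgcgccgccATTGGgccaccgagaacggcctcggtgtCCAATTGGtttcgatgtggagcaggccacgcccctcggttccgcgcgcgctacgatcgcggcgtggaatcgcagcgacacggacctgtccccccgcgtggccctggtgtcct
Thrsp, chr7:97417501-97417800, minus strand: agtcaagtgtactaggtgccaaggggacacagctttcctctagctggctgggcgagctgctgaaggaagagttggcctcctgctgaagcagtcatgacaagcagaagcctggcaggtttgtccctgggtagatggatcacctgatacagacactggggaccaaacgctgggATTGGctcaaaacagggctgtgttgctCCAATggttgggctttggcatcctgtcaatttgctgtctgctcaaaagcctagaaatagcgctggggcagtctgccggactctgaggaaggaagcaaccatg
Acly, chr11:100527951-100528250, minus strand: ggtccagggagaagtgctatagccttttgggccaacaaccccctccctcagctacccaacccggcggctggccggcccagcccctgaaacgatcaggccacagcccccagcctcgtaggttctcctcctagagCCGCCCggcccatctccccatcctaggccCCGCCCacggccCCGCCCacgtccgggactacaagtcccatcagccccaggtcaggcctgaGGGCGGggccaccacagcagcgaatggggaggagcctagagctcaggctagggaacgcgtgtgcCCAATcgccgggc
Me1, chr9:86695865-86696164, minus strand: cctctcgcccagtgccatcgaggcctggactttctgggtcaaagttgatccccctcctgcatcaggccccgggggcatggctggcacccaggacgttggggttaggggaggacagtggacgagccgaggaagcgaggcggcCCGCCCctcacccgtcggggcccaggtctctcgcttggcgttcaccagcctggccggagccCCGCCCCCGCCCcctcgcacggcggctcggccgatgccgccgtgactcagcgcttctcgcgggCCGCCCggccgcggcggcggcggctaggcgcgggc
Elovl6, chr3:129532136-129532435, plus strand: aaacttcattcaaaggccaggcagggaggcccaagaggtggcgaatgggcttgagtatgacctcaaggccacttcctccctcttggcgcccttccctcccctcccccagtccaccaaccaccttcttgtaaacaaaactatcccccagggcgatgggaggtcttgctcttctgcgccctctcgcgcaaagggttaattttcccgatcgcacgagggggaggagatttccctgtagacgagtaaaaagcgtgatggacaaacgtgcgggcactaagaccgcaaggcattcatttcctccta
Fasn had 3 CCAAT matches, at -90, -62 and -59 from the start site, of which the last 2 overlap, and Thrsp had 2, at -79 and -52. Acly had 4 GGGCGG matches and 1 CCAAT match, and the Me1 promoter shown had 4 GGGCGG matches. Elovl6 and Acaca had no match to any motif searched. The only Acaca promoter found (chr11:84195188-84195487) lies inside the gene span given above. A start site at the 5' end of that span was therefore not searched for Acaca. The letters TCACNCCAC (sterol regulatory element) and CACGTG (E-box) were in none of the 10 promoters of these genes, against 1.24% and 7.15% of all promoters. Of the 3 Srebf1 promoters, 2 held CCAAT and 2 held GGGCGG. A match is a string of letters and not a measured binding site.

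Hepatocytes gave the 9 genes 0.0328% of their non-mitochondrial UMIs in P14. This share was 0.194% 48 h after PHx, 0.290% after 24 h, 0.372% after 96 h and 0.426% in the control. The order held without Scd1: the other 8 genes took 0.0308%, 0.0635%, 0.0806%, 0.122% and 0.144% in the same libraries. Scd1 alone supplied 66.2% to 72.2% of the genes' UMIs in the 4 adult libraries and 6.19% in P14.

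**Figure D1:**
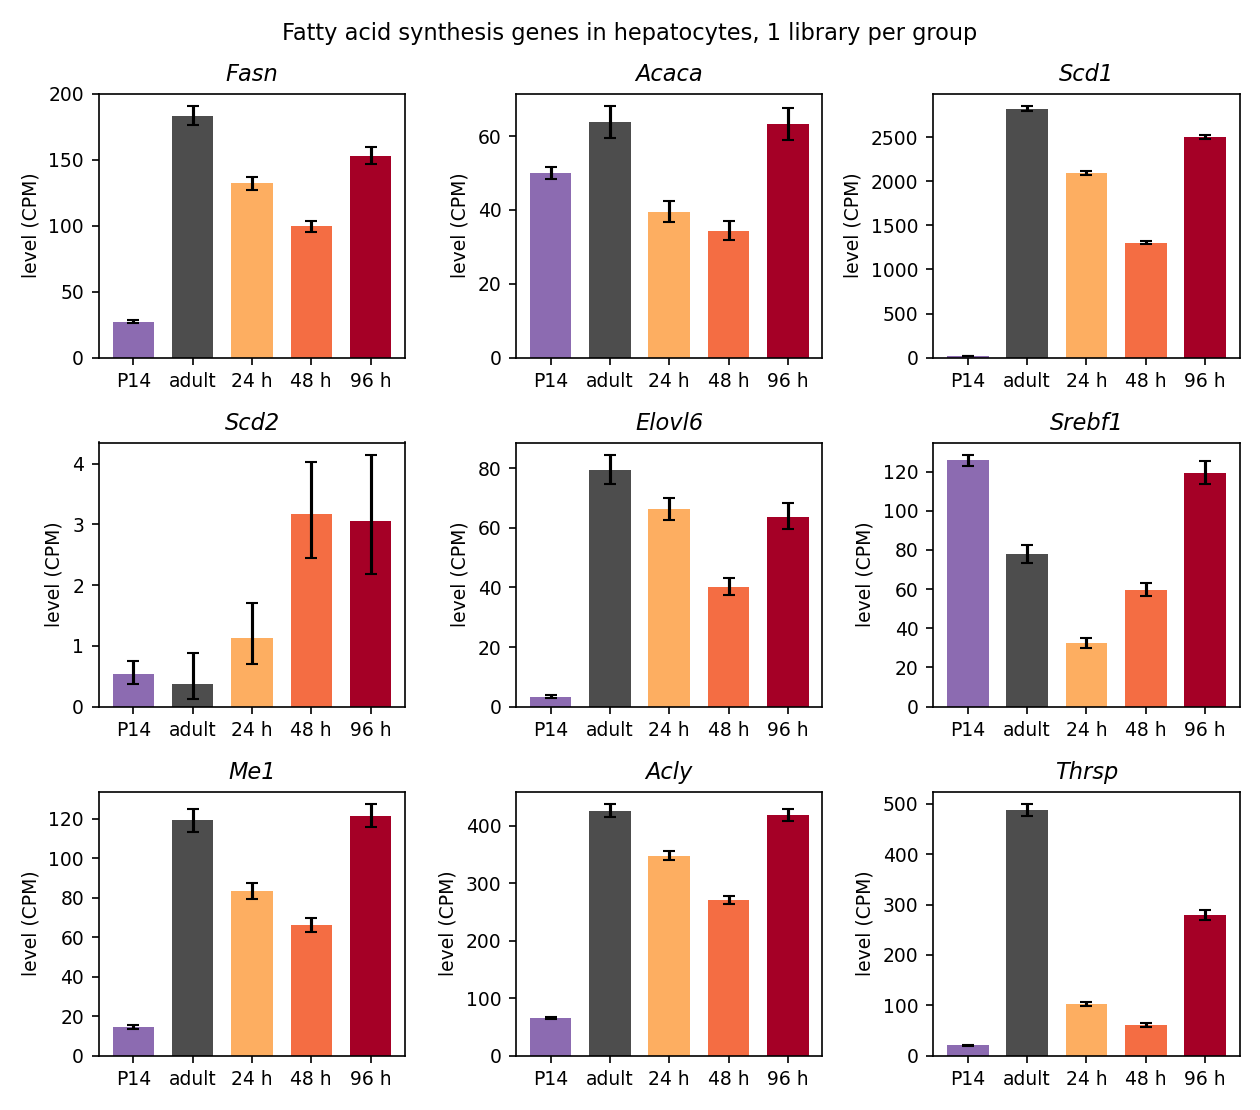
Levels of the 9 genes in hepatocytes (CPM, linear axes starting at 0, each gene on its own scale), 1 bar per library, with 95% Poisson intervals that cover counting error only. Fasn, Scd1, Me1, Acly and Thrsp are lowest in P14 and, among the adult libraries, lowest at 48 h; Srebf1 is lowest at 24 h and highest in P14.

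Acly, which makes cytosolic acetyl-CoA, was at 427 CPM (416 to 438) in the adult control, 348 CPM (340 to 357) at 24 h, 271 CPM (264 to 278) at 48 h, 419 CPM (408 to 430) at 96 h and 65.6 CPM (63.6 to 67.6) in P14. The 96 h level was within counting error of the control, with a ratio of control to 96 h of 1.02 (0.981 to 1.06). Me1, a source of NADPH, stood at 119 CPM (113 to 125) in the control, 83.5 CPM at 24 h, 66.1 CPM at 48 h, 121 CPM at 96 h and 14.6 CPM (13.6 to 15.5) in P14. Its control and 96 h levels did not differ beyond counting error either.

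Fasn, the synthase itself, was at 183 CPM (176 to 191) in the control, 132 CPM at 24 h, 99.5 CPM (95.2 to 104) at 48 h, 153 CPM at 96 h and 27.4 CPM (26.1 to 28.7) in P14. Acaca, which makes the malonyl-CoA that Fasn uses, spanned the narrowest range of the genes above 5 CPM: 63.7 CPM (59.5 to 68.1) in the control, 39.6 CPM at 24 h, 34.3 CPM (31.9 to 36.9) at 48 h, 63.2 CPM at 96 h and 49.97 CPM (48.3 to 51.7) in P14. Unlike Fasn, Acaca in P14 was thus above the 24 h and 48 h libraries.

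Elovl6 was at 79.4 CPM (74.7 to 84.4) in the control, 66.3 CPM at 24 h, 40.3 CPM (37.6 to 43.1) at 48 h, 63.8 CPM at 96 h and 3.33 CPM (2.90 to 3.81) in P14. Scd1, which makes oleate and palmitoleate, was at 2822 CPM in the control, 2091 CPM at 24 h, 1301 CPM at 48 h, 2501 CPM at 96 h and 20.3 CPM (19.2 to 21.4) in P14. P14 thus stood apart from the adult libraries for both genes, and for Scd1 far more than the adult libraries did from each other.

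Srebf1 had another order. It was at 126 CPM (123 to 128) in P14, 119 CPM (114 to 125) at 96 h, 77.9 CPM (73.2 to 82.8) in the control, 59.6 CPM (56.3 to 63.0) at 48 h and 32.4 CPM (29.9 to 35.0) at 24 h. The P14 and 96 h levels did not differ beyond counting error, with a ratio of 1.05 (0.998 to 1.11). The other neighbours in this order did. These statements hold for plain CPM. With another scaling (TMM factors) the log2 difference from the control was 1.02 in P14 and 0.59 at 96 h. In cells of 10% to 20% mitochondrial UMIs it was 0.73 in P14 and 0.86 at 96 h. The counts do not separate the isoforms of Srebf1. Thrsp was at 488 CPM (476 to 500) in the control, 103 CPM (98.4 to 107) at 24 h, 61.2 CPM (57.8 to 64.6) at 48 h, 279 CPM (270 to 288) at 96 h and 20.8 CPM (19.7 to 21.9) in P14, so each library differed from its neighbour in this order beyond counting error.

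Compared with the adult control, the 24 h library had 2 of the 8 genes tested, Srebf1 and Thrsp, at least 2-fold lower and 0 higher; over all 9028 genes tested, 7.13% were that much lower and 8.51% higher. A gene was tested when it had at least 5 CPM in either library, which Scd2 did not, and the difference is log2((CPM + 1)/(CPM + 1)). Srebf1 differed by -1.24 (2.40-fold lower, interval 2.18 to 2.66) and Thrsp by -2.23 (4.74-fold lower, 4.51 to 4.99). The other 6 had lower levels by less than 2-fold, with log2 differences between -0.67 for Acaca and -0.26 for Elovl6. The median log2 difference of the 8 genes was -0.49, against -0.00 over all genes. In cells of 10% to 20% mitochondrial UMIs, 87 in the control and 181 at 24 h, Srebf1 was at -0.98 and no longer past 2-fold.

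At 48 h, Thrsp and Scd1 were the 2 genes at least 2-fold lower than in the control and 0 were higher, where 7.63% of the 9035 genes tested were lower and 8.30% higher. Thrsp differed by -2.98 on the log2 scale (7.98-fold lower, 7.51 to 8.48) and Scd1 by -1.12 (2.17-fold lower, 2.14 to 2.20). Elovl6 (-0.96), Fasn (-0.87), Acaca (-0.87), Me1 (-0.84) and Acly (-0.65) lay closer to that limit than at 24 h, and Srebf1 differed by -0.38. The median was -0.87, against -0.08 over all genes. Scd1 was no longer past 2-fold in non-cycling hepatocytes alone (log2 difference -0.67) or as a mean of per-cell CPM (-0.99), whereas Thrsp was at -2.54 and -2.91. Me1 was past 2-fold in non-cycling cells alone (-1.01), and Elovl6 with cells of under 10% mitochondrial UMIs let in (-1.04). In cells of 10% to 20% mitochondrial UMIs 5 genes were past 2-fold lower: Fasn, Scd1, Elovl6, Acly and Thrsp.

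Between 24 h and 48 h no gene of the 8 passed 2-fold in either direction (1.76% of all 8817 genes tested were lower and 1.78% higher). Srebf1 was the 1 gene higher at 48 h, by 0.86 on the log2 scale (1.84-fold, 1.67 to 2.03), while the other 7 were lower by -0.20 (Acaca) to -0.74 (Thrsp). Srebf1 and the other 7 genes thus had opposite signs between these 2 libraries. Of all 8817 genes tested, 5167 were lower and 3650 higher at 48 h.

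At 96 h, 0 of the 8 genes were past 2-fold from the control in either direction (1.88% of the 8890 genes tested were lower and 4.07% higher). Thrsp remained the lowest against the control, at -0.80 on the log2 scale (57.3% of the control level), and Srebf1 was above it, at 0.61 (1.53-fold, 1.42 to 1.66). Acaca, Me1 and Acly differed from the control by -0.01, 0.03 and -0.03, each with an interval that held no difference. Against the 48 h library all 8 genes were higher at 96 h, as were 5463 of all 8966 genes tested. The median log2 difference of the 8 genes was 0.86, against 0.11 over all genes. Thrsp was the 1 gene past 2-fold, at 2.17 (4.57-fold, 4.29 to 4.87), where 4.38% of the 8966 genes tested were that much higher and 4.24% lower. Srebf1 was just short of the limit at 0.99. These comparisons share libraries, so they are not independent of each other.

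**Figure D2:**
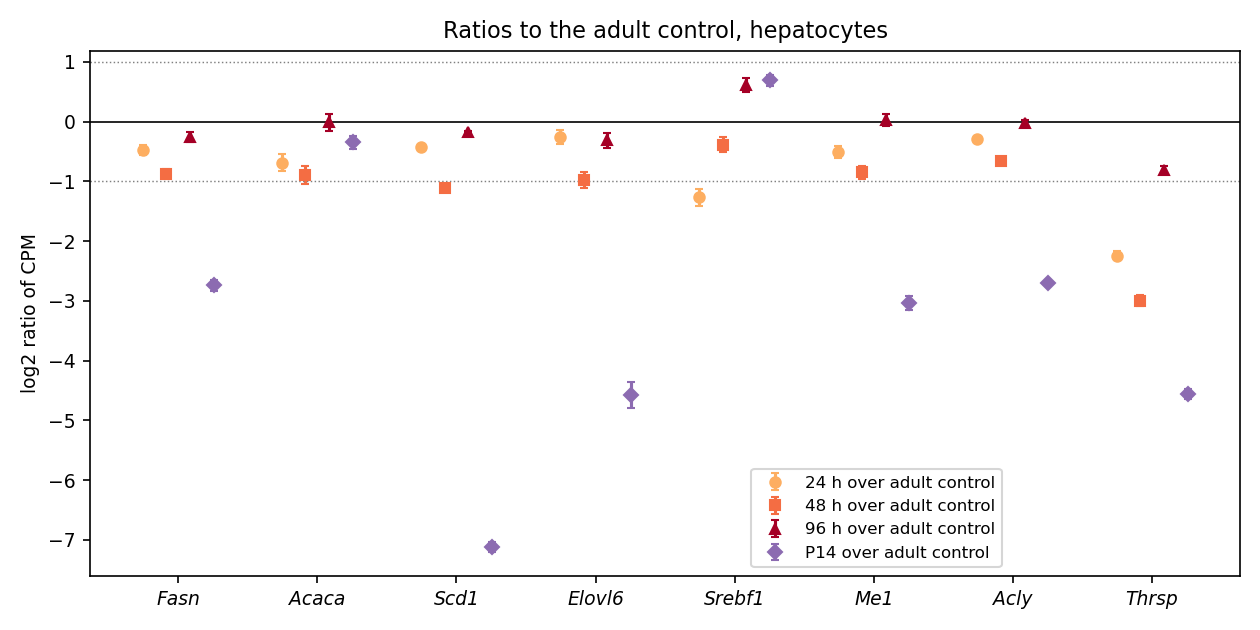
Log2 ratio of CPM to the adult control for the 8 genes above 5 CPM (computed without the added 1 CPM), 1 point per library compared, bars for 95% counting intervals, dotted lines at 2-fold. Thrsp is the lowest gene at 24 h and 48 h, Scd1 is the lowest in P14, and Srebf1 lies above 0 in P14 and at 96 h.

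In P14 hepatocytes 6 of the 8 genes were at least 2-fold below the adult control and 0 above it, with 13.8% of the 9011 genes tested lower and 7.89% higher. Scd1 differed by -7.05 on the log2 scale (139-fold lower, 132 to 147), Thrsp by -4.49 (23.5-fold lower), Elovl6 by -4.22, Me1 by -2.95, Fasn by -2.70 and Acly by -2.68. Acaca differed by -0.34 and Srebf1 by 0.68 (1.61-fold higher, 1.51 to 1.72). The median was -2.82, against -0.26 over all genes. Scaling by TMM factors moved that median of all genes to 0.08 and turned the split of all genes to 7.64% lower and 12.8% higher; the same 6 genes stayed past 2-fold, and Srebf1 reached 1.02. Relative to the median of all genes, Acaca stood at -0.08 and Srebf1 at 0.95.

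The regulators of the pathway were compared as a list of 14 genes, all tested. At 24 h, 3 were past 2-fold lower and 0 higher: Mlxipl, which encodes the glucose-responsive factor ChREBP (127 CPM in the control, 38.5 CPM at 24 h), Ppargc1b, a coactivator (27.8 and 2.87 CPM), and Mid1ip1, a relative of Thrsp that activates acetyl-CoA carboxylase (76.1 and 28.1 CPM). At 48 h, 4 were lower and 0 higher, the 3 with the largest change being Ppargc1b (-2.82), Mid1ip1 (-1.92) and Insig2 (-1.45), which retains the SREBP complex in the endoplasmic reticulum. At 96 h Ppargc1b alone was past 2-fold lower (-1.13). In P14, 3 were lower and 0 higher: Insig1 (-2.30), Mid1ip1 (-2.01) and Prkaa2 (-1.43). The list had a median log2 difference of -0.66 in P14, -0.38 after 24 h, -0.61 after 48 h and -0.27 after 96 h.

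Of the 13 genes that supply precursors and NADPH, 12 were tested. At 24 h, 3 were past 2-fold lower, among them Pklr, pyruvate kinase (-1.58), and Slc2a2, the glucose transporter GLUT2 (-1.43), and 0 were higher. At 48 h, 4 were lower, led by Slc2a2 (-2.53) and Pklr (-2.08), and 0 were higher. At 96 h 0 were lower and 1 was higher, Mpc2, a subunit of the mitochondrial pyruvate carrier (1.24). In P14, 4 were lower, among them Acss2, which makes acetyl-CoA from acetate (-3.64), and Slc25a1, the citrate carrier (-2.12), and both pyruvate carrier subunits, Mpc1 (1.59) and Mpc2 (1.96), were higher.

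Among 12 further carboxylase, elongation and desaturation genes, of which 10 were tested, Acacb and Elovl3 were the 2 past 2-fold lower at each time after PHx, and 0 were higher. Acacb, the mitochondrial carboxylase that restrains fatty acid oxidation, was at 40.2 CPM in the control, 11.6 CPM at 24 h, 13.0 CPM at 48 h, 15.7 CPM at 96 h and 1.72 CPM in P14. Elovl3, an elongase of saturated fatty acids, was at 254 CPM in the control, 69.2 CPM at 24 h, 53.2 CPM at 48 h and 50.4 CPM at 96 h, and at 1 UMI in all P14 hepatocytes together. In P14, 4 of the 10 were lower and 1 was higher: Fads2, a desaturase of polyunsaturated fatty acids (30.04 CPM in the control, 1.29 on the log2 scale).

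Of 14 genes of triglyceride assembly and storage, 11 were tested. At 24 h Dgat2, which makes triglyceride, was the 1 gene past 2-fold lower (-1.06). At 48 h 3 were, Lpin1 (-1.43), Dgat2 (-1.35) and the lipase gene Pnpla2 (-1.04). None was past 2-fold higher at either time, and 0 in either direction at 96 h or in P14. In cholesterol synthesis, which SREBP-2 mainly drives, of 13 genes, all tested, 0 were lower and 3 higher at 24 h, 0 and 0 at 48 h, 0 and 1 at 96 h, and 12 lower and 0 higher in P14. Those higher at 24 h included Sqle (1.17) and Hmgcs1 (1.08). The medians of this list were 0.67 at 24 h, where that of the fatty acid synthesis genes was negative, and -2.22 in P14, where both were negative. The difference between the lists was not tested.

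Other gene lists stood apart in the same libraries, and their part in these results was not tested. Clock genes, most of which follow the time of day in liver, were past 2-fold lower in 5 of 11 at 24 h and 7 of 11 at 48 h, with 1 higher each time, and in 0 of 10 in either direction at 96 h. Dbp, an output of the clock, was at 152 CPM in the control, 9.07 CPM at 24 h, 3.22 CPM at 48 h, 119 CPM at 96 h and 13.1 CPM in P14. Igfbp1, a gene of the fasting and insulin-lack response, was at 23.6 CPM in the control, 468 CPM at 24 h, 235 CPM at 48 h, 42.9 CPM at 96 h and 2075 CPM in P14, whereas Pck1 of the same list was at 2743, 2131, 1523, 1476 and 2663 CPM in those libraries. Neutrophil markers in hepatocytes summed to 11.5 CPM in the control, 105 CPM at 24 h, 196 CPM at 48 h, 21.6 CPM at 96 h and 29.1 CPM in P14. Genes of the dissociation response summed to 399 CPM in P14, 610 CPM in the control and 539, 672 and 844 CPM at 24 h, 48 h and 96 h. Against the control, 3 of 8 of these genes were past 2-fold lower and 0 higher in P14, 2 of 8 lower and 0 higher at 24 h, 2 of 9 lower and 3 higher at 48 h, and 1 of 9 lower and 3 higher at 96 h. Of 11 clock genes 5 were lower and 2 higher in P14. Of the fasting list, which holds Igfbp1 and Pck1, 0 of 8 genes were lower and 4 higher in P14 (median 1.01). At 24 h and again at 48 h, 1 of 7 fasting genes was lower and 1 higher. At 96 h 1 of 7 was lower and 0 were higher. Of the 12 periportal genes used below for position, 4 were lower and 1 higher at 24 h, and 7 and 1 at 48 h (median -1.11). At 96 h 1 was lower and 2 were higher, and in P14 5 and 0 (median -0.38). Against 48 h, 9 were higher at 96 h (median 1.69). Of the pericentral genes used with them, 4 of 11 were lower and 3 higher at 24 h, and 1 of 11 and 0 at 48 h. At 96 h 0 of 10 were past 2-fold in either direction. In P14 4 of 11 were lower and 0 higher (median -0.68).

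Cell by cell, the share of hepatocytes with at least 1 UMI was compared after thinning every cell to 5000 UMIs. For Thrsp this share was 5.75% in P14, 21.4% of cells 48 h after PHx, 30.4% after 24 h, 59.5% after 96 h and 78.8% (76.0% to 81.4%, exact binomial) in the control. For Srebf1 it was 13.3% of cells 24 h after PHx, 16.8% after 48 h, 26.5% in the control, 35.7% after 96 h and 37.3% in P14. In T or NK cells the Srebf1 share was 2% to 14.7%, but these cells held more Srebf1 UMIs than free RNA gives (98 against 59.9 expected in the control, 22 against 2.49 in P14), so it is no measure of background for this gene. Free RNA was estimated at 0.324% to 8.33% of hepatocyte Srebf1 UMIs. Unthinned, the Thrsp share was 19.2% in P14, 67.2% after 48 h, 70.3% after 24 h, 91.3% after 96 h and 97.0% in the control. In T or NK cells, which should lack Thrsp, it was after thinning 1.47% in P14, 2.90% after 48 h, 9% after 24 h, 21.5% after 96 h and 38.4% in the control, so the hepatocyte share was above this background beyond counting error in the 4 adult libraries, while the P14 background rests on 68 cells and its interval (0.0372% to 7.92%) held the hepatocyte share. The median depth of T or NK cells before thinning was 6524 to 8072.5 UMIs. That is below the depth of hepatocytes, so an equal amount of free RNA makes up more of it. Free RNA was estimated at 1.62% to 9.25% of hepatocyte Thrsp UMIs. In P14 it was 31.2 of 1342 UMIs (2.32%). For Scd1 in the control the background was 97.2%, against 99.9% of hepatocytes, and that share was not read as a difference.

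Scd1 had the highest variance over mean among cells of the adult libraries, a ratio that grows with the level. At 5000 UMIs it was 1.41 in P14, 2.24 after 24 h, 3.53 after 48 h, 3.63 in the control and 4.91 after 96 h, where 1 is the value for counting noise alone. With counting noise removed and scaled to the level (excess squared coefficient of variation), Scd1 was below another of the genes in each adult library: it was at 0.247 against 0.309 for Me1 in the control, 0.152 against 0.442 for Thrsp after 24 h, 0.476 against 0.959 for Elovl6 after 48 h and 0.402 against 0.414 for Thrsp after 96 h. At 48 h the tenth of cells with the most Scd1 held 28.3% of its UMIs, against 20.4% at 24 h. The middle of the unthinned distribution moved with the sums: median Scd1 per cell was 2591 CPM in the control, 2066 CPM at 24 h, 1111 CPM at 48 h and 2231 CPM at 96 h. Acly had ratios of 1.16 after 24 h, 1.26 after 48 h, 1.39 after 96 h and 1.48 in the control, while Srebf1, Elovl6 and Acaca stayed between 0.929 and 1.15 in all 5. P14 Thrsp was concentrated: at 5.75% of cells with a UMI its ratio was 2.22, and the unthinned level was 0 in the median cell, 57.5 CPM at the 90th percentile and 1172 CPM in the highest cell.

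**Figure D3:**
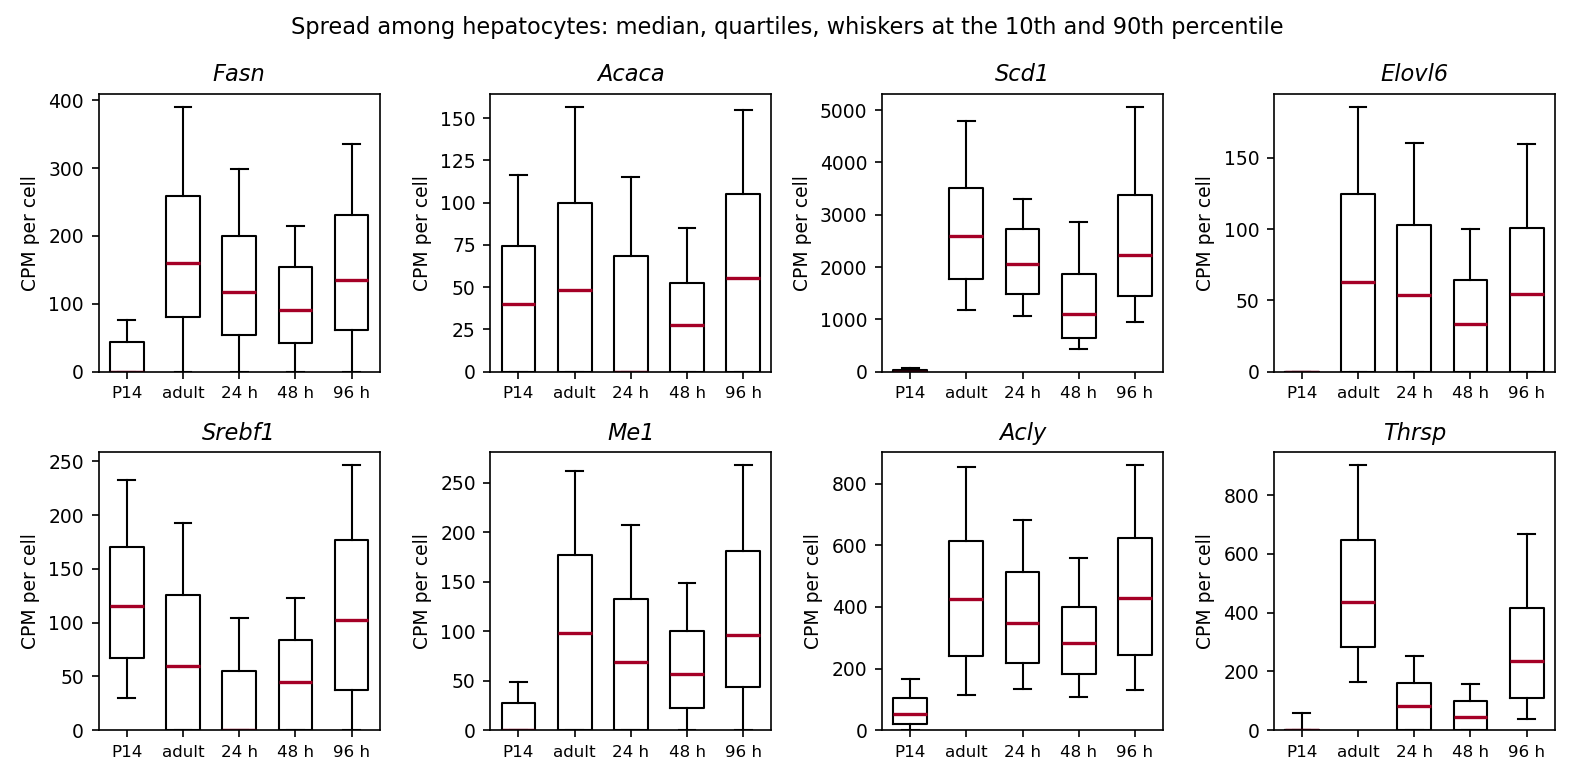
CPM per hepatocyte (unthinned, linear axes) for the 8 genes above 5 CPM, 1 box per library: red line the median, box the quartiles, whiskers the 10th and 90th percentiles of cells. The Thrsp median is 435 CPM in the adult control and 0 in P14, and the Scd1 median is lowest among the adult libraries at 48 h.

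Position in the lobule was read from 12 pericentral and 12 periportal genes, none of them a member: hepatocytes of each library were ordered by the pericentral share of these UMIs and cut into 3 ranges of equal cell number, 239 to 702 cells each. They are ranges of a score and not cell types, with 70 to 215 cells within 2 percentage points of a cut, and the cuts differ between libraries. Acly was lower in the pericentral-most range in every library. It was at 234 CPM there and 570 CPM in the periportal-most range of the control, 267 and 418 CPM at 24 h, 252 and 312 CPM at 48 h, 261 and 582 CPM at 96 h, and 29.1 and 107 CPM in P14. The log2 differences were -1.28, -0.65, -0.31, -1.15 and -1.84 in that order. The gradient was thus smallest at 48 h, where it turned to 0.04 in cells of 10% to 20% mitochondrial UMIs. Between 2.56% and 5.60% of all genes differed 2-fold or more between the outer ranges in a library.

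Thrsp had the steepest gradient of the genes, in P14: 3.63 CPM in the pericentral-most and 47.5 CPM in the periportal-most range, a log2 difference of -3.39. In the control it was at 347 and 596 CPM (-0.78) and at 96 h at 185 and 396 CPM (-1.09). At 24 h the outer ranges did not differ beyond counting error, at 103 and 107 CPM (ratio 0.968, 0.868 to 1.08), and at 48 h the pericentral-most range was higher, at 78.9 against 50.8 CPM (0.62). Scd1 ran the other way in 4 libraries, higher in the pericentral-most range by 0.97 in P14, 0.33 in the control, 0.49 at 24 h and 1.02 at 48 h, and lower by -0.31 at 96 h. Its middle range was the lowest in P14, at 10.6 CPM against 16.6 CPM periportal-most and 33.5 CPM pericentral-most. The same held at 96 h, at 2115 CPM against 3023 and 2436 CPM. In cells of 10% to 20% mitochondrial UMIs the signs turned for Scd1 in the control (-0.10) and at 96 h (0.05) and for Thrsp at 24 h (0.47).

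Me1 was higher in the pericentral-most range of the adult libraries, with log2 differences of 0.26 in the control, 0.38 after 24 h, 0.72 after 48 h and 0.85 after 96 h, and lower in P14 (-0.22). In cells of 10% to 20% mitochondrial UMIs the difference was 0.03 after 96 h, 0.78 in the control and 0.04 in P14. Fasn was lower there in P14 (-0.68) and the control (-0.72) and higher at 24 h (0.17) and 48 h (0.42). At 96 h it was at -0.15 (ratio 0.901, 0.811 to 1.001), and at 0.31 in cells of 10% to 20% mitochondrial UMIs. Elovl6 had a gradient past 2-fold in P14 alone, at 1.16 and 7.08 CPM. The members therefore did not share 1 direction along this axis.

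**Figure D4:**
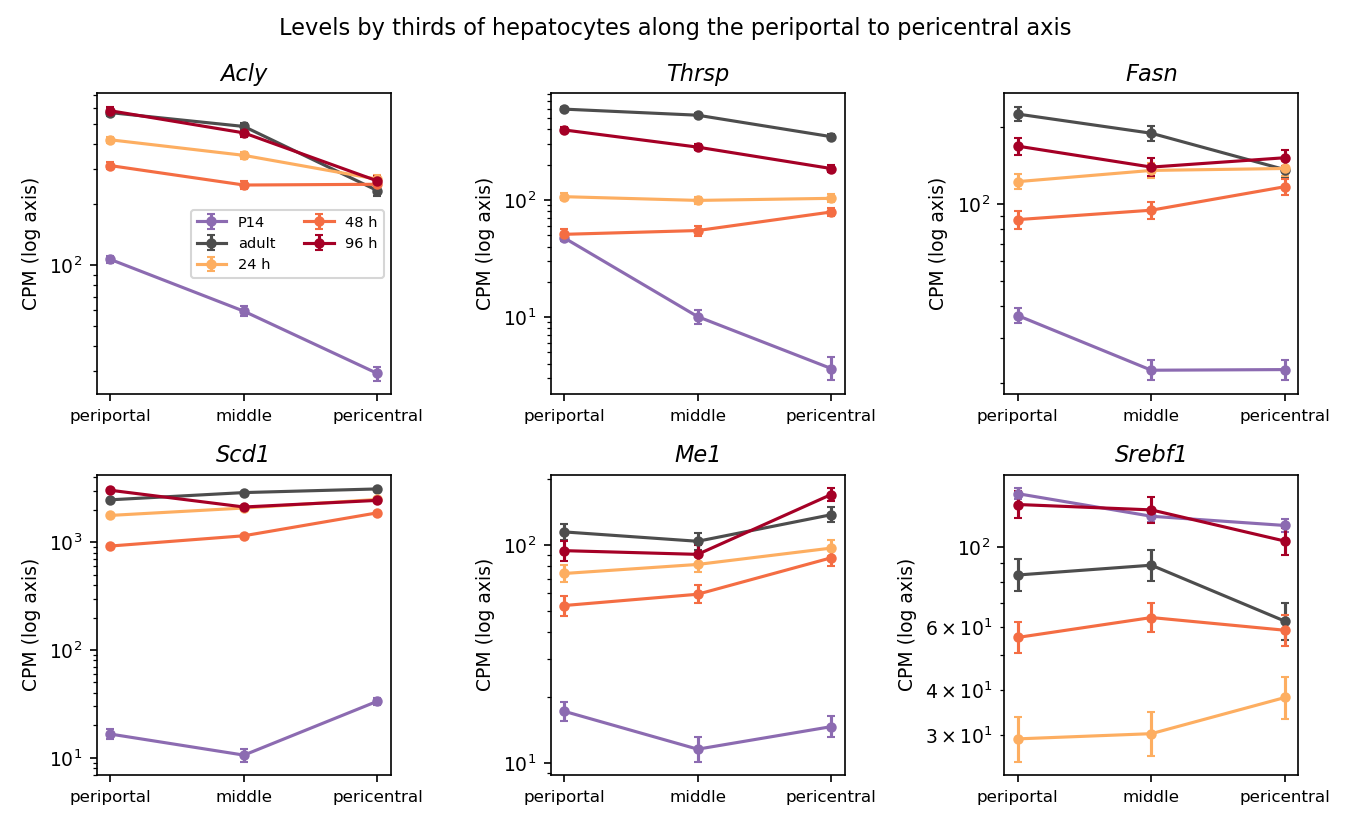
CPM (log axes) in the periportal-most, middle and pericentral-most ranges of hepatocytes, 1 line per library, with 95% counting intervals. Acly is lower at the pericentral than at the periportal end in all 5 libraries, Thrsp is steepest in P14, and Scd1 is higher at the pericentral end in all but the 96 h library.

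Cycling hepatocytes (at least 3 of 20 mitosis genes seen at 5000 UMIs) were compared with non-cycling ones (0 mitosis genes and at most 1 replication gene) of the same library. P14 had 227 cycling and 1308 non-cycling cells, the 24 h library 166 and 395, the 48 h library 275 and 207 and the 96 h library 55 and 529, and with 4 cycling cells the control was left out. Cells with fewer than 3 mitosis genes that did not meet the non-cycling rule were in neither set, at 24 h most of the 1170 hepatocytes. Cycling here thus means seen with mitosis genes. After PHx 4 genes, Acly, Thrsp, Fasn and Scd1, were lower in cycling cells beyond counting error at each time. The share of all genes that pass this criterion was not computed, so the count is a description only. These intervals leave out variation from cell to cell. Acly was at 245 CPM in cycling and 395 CPM in non-cycling cells at 24 h, 204 and 348 CPM at 48 h, and 186 and 473 CPM at 96 h, which are log2 differences of -0.69, -0.77 and -1.34. Thrsp differed by -0.45, -1.17 and -1.59, Fasn by -0.53, -0.82 and -0.83, and Scd1 by -0.33, -0.94 and -0.48. Over all genes the median log2 difference was 0.15 after 24 h, 0.20 after 48 h and 0.23 after 96 h, and 9.34%, 8.49% and 12.2% of genes were past 2-fold in either direction.

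The other genes were not lower in cycling cells beyond counting error throughout. Me1 was higher in them by 0.16 at 24 h (ratio 1.12, 0.975 to 1.29), 0.35 at 48 h, 0.72 at 96 h and 0.53 in P14. Acaca and Elovl6 had intervals that held no difference in all 4 libraries over cells of all positions. Elovl6 was below 0 at each time after PHx, at -0.16 after 24 h, -0.22 after 48 h and -0.04 after 96 h. Srebf1 was higher in cycling cells at 24 h (0.54) and lower at 96 h (-0.50). In P14, where the median over all genes was 0.24 and 9.37% were past 2-fold, cycling cells had Acly at 0.14, Fasn at -0.00, Thrsp at -0.97 and Scd1 at -0.93. In P14 cells of 10% to 20% mitochondrial UMIs Acly was at -0.10 and Thrsp at -1.98, and with at least 5 mitosis genes Thrsp was at -1.61.

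Cycling cells also differed in position and depth. The median pericentral share was 46.7% in cycling and 28.1% in non-cycling cells at 24 h, 49.9% and 59.7% at 48 h, 50% and 16.4% at 96 h, and 45.0% and 53.4% in P14. Within the more periportal and the more pericentral cells, split at the median, Acly differed by -0.63 and -0.58 at 24 h and by -0.79 and -0.82 at 48 h. Fasn differed by -0.67 and -0.52 at 24 h and by -0.81 and -0.78 at 48 h. Scd1 differed by -0.43 and -0.39 at 24 h and by -0.82 and -0.88 at 48 h. Thrsp differed by -0.86 in the more periportal cells at 24 h but by -0.20 in the more pericentral ones (ratio 0.870, 0.716 to 1.05), an interval that held no difference, and by -1.26 and -1.06 at 48 h. At 96 h only the more pericentral set held enough cycling cells to compare, and Acly differed there by -1.24. Srebf1 was at 0.60 and 0.36 in the more periportal and more pericentral cells at 24 h (ratio in the latter 1.29, 0.955 to 1.75), at -0.34 and 0.37 at 48 h and, in the more pericentral cells at 96 h, at -0.28 (ratio 0.823, 0.654 to 1.03). Its 24 h and 96 h differences were thus within counting error in the more pericentral cells, and at 48 h the signs were opposite. Elovl6 was lower in cycling cells of the more periportal set at 24 h (ratio 0.694, 0.525 to 0.907) and higher in those of the more pericentral set in P14 (3.25, 1.04 to 8.74). In P14 Acly was at -0.14 in the more periportal and 0.22 in the more pericentral cells, both with intervals that held no difference, and Thrsp at -1.42 and -0.45, the latter with such an interval (ratio 0.673, 0.283 to 1.38). Median depth was 42448 UMIs in cycling and 32791 UMIs in non-cycling cells at 48 h. Within each set cycling and non-cycling cells can still differ in position, and the parts of position and depth were not tested.

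**Figure D5:**
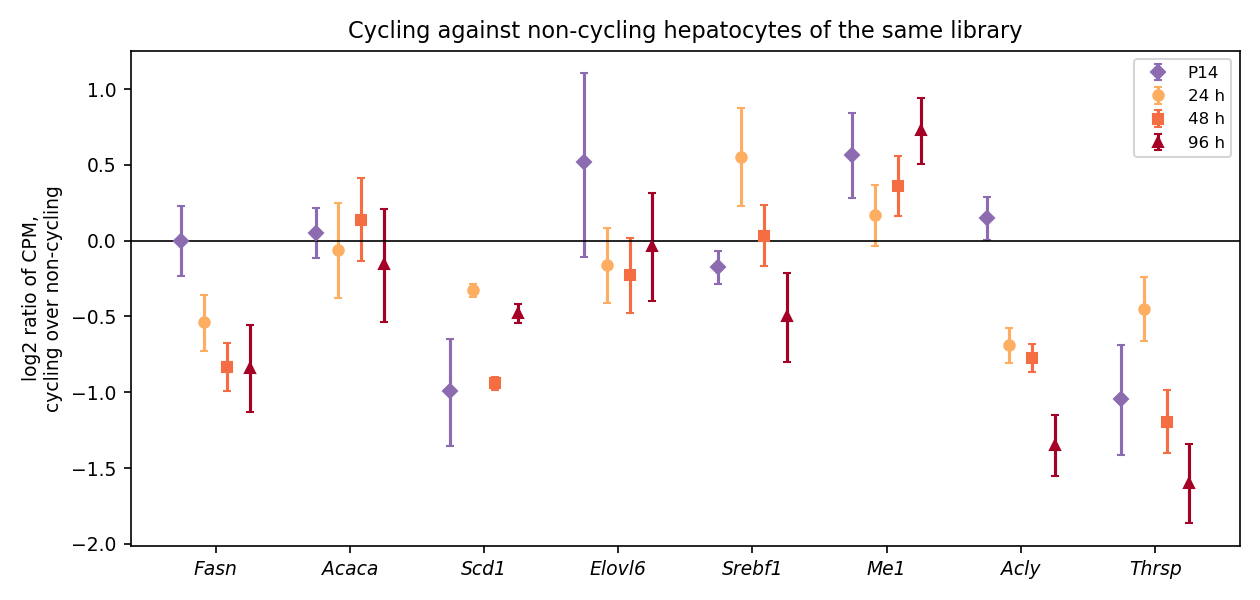
Log2 ratio of CPM in cycling over non-cycling hepatocytes of the same library (y axis, computed without the added 1 CPM) for the 8 genes above 5 CPM, with 95% counting intervals. Acly, Fasn, Scd1 and Thrsp lie below 0 at 24 h, 48 h and 96 h, and Me1 lies above 0.

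Scd2 was the member that hepatocytes hardly carried. It had 5 UMIs in all control hepatocytes (0.375 CPM, 0.122 to 0.876), 22 UMIs at 24 h (1.13 CPM), 66 UMIs at 48 h (3.17 CPM, 2.45 to 4.03), 41 UMIs at 96 h (3.05 CPM) and 35 UMIs in P14 (0.542 CPM). It stayed under the 5 CPM needed for a comparison in every library. In cells gated as monocytes, macrophages or dendritic cells, by at least 3 of their markers, Scd2 was at 59.1 CPM (39.9 to 84.3) in the control, 101 CPM at 24 h, 92.9 CPM at 48 h, 92.2 CPM at 96 h and 56.8 CPM in P14. In endothelial cells it was at 62.4 CPM (40.0 to 92.9) at 24 h, 154 CPM (113 to 204) at 48 h and 141 CPM (91.0 to 208) at 96 h, from 81, 38 and 27 cells, and at 2 UMIs from 21 control cells. T or NK cells held between 10.3 and 33.5 CPM of it. Scd1 had 0 UMIs in the 25 P14 monocytes, macrophages or dendritic cells; in the same class of the control it was at 610 CPM, in a library whose empty droplets held it at 4438 CPM.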

How the data were processed

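Single-cell libraries (10x v3) were made from perfused livers after removal of dead cells, per the labels' protocols. The authors' deposited matrices hold raw UMI counts per gene and barcode, empty droplets included. They were written by software version 3.0.2, per the file headers; Cell Ranger, Seurat 3.1 and mm10 are listed per the submitters' processing notes, without their roles. The members and gene lists were chosen with earlier results of these data known. Hepatocyte counts were summed per library and divided by summed non-mitochondrial UMIs to give CPM; 1 CPM was added before log2. Ratios of counts have exact conditional binomial 95% intervals and levels exact Poisson ones. With 1 library per group there are no p-values, and a 2-fold difference is the call. No doublet caller was run. Named besides the 9 genes were, per list and comparison, at most 3 genes a direction with the largest change past 2-fold, defining markers of other cells, and 6 genes with the most similar profile. Dbp, Pck1 and Igfbp1 were named after their values were seen. Some genes that this rule selects are not reported here. Python 3.11.15, numpy 2.4.6, pandas 2.3.3 and scipy 1.17.1 were used, with edgeR 4.0.16 for TMM factors only. Promoters came from RefSeq (GRCm38.p6) and gene positions from GENCODE M21.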

Additional observations from a re-analysis of the deposited data

How the results depend on the processing

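Over 16 other settings, 168 of 186 counts of genes past 2-fold were within 1.5 times the reported count and 18 were not, and no single gene's call turned to the opposite direction. Most reported counts were 0, where staying the same means 0 again, and all settings reuse the same 5 libraries. The 168 are therefore no measure of support. In cells of 10% to 20% mitochondrial UMIs, 1 gene was lower at 24 h and 5 were lower at 48 h than in the control. With the mean of per-cell CPM, 1 gene was lower at 48 h, and 2 were higher at 96 h than at 48 h. For that last comparison 2 genes were higher with free RNA subtracted, 2 with a pseudocount of 0.1 CPM, 2 with mitochondrial shares of 10% to 50%, and 3 in non-cycling cells. TMM factors gave 1 gene higher in P14. With no filter on low genes, 1 gene, Scd2, was higher than in the control at 48 h and 1, also Scd2, at 96 h. Against the control, a fold of 1.5 gave 7 genes lower at 48 h (19.6% of all genes tested), 1 lower (6.92%) and 1 higher (12.3%) at 96 h and 1 higher in P14 (14.3%). It gave 3 lower (7.01%) and 1 higher (5.13%) at 48 h against 24 h, and 8 higher (13.9%) at 96 h against 48 h. The fold of 1.5 and the mitochondrial range of 10% to 50% were chosen after seeing the data. The sign was the same in every setting for 45 of 48 ratios, Scd2 left out. The exceptions were Acaca (-0.37 to 0.10), Me1 (-0.76 to 0.21) and Acly (-0.40 to 0.15) at 96 h against the control. A change of the fold, the pseudocount or the filter on low genes cannot turn a sign, so those settings add no support here. Apart from what the construction of a setting shows, the cause was not tested. A minimum of 5% Alb, Apoa1 and Ttr left 47 control, 6 24 h and 2 48 h cells and was not run. A setting meant to remove likely doublets left 168 of 925 control, 380 of 1170 24 h and 38 of 719 48 h cells. It took out most cells of these libraries, and whether those were doublets was not tested. With 38 cells at 48 h, no value was computed for the 3 comparisons with that library. No paired analysis was possible because each group is 1 library.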

Other observations

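Among 1672 other genes with at least 50 CPM in 1 library and a log2 range of at least 1, the 6 whose levels over the 5 libraries were most like the mean profile of the 9 genes were Trip4, Nox4, Dynlt3, BC005537, Pigr and Kmo (Pearson r 0.995 to 0.999 over 5 libraries, a description with no test). Pigr, the receptor that carries polymeric antibodies across epithelia, was at 17.1 CPM in P14, 374 CPM 48 h after PHx, 412 CPM after 24 h, 1028 CPM after 96 h and 1279 CPM in the control, the same order of libraries as Scd1, Fasn, Acly and Thrsp. Nox4, an NADPH oxidase, was at 0.0929 CPM in P14 and 54.6 CPM in the control. Insig1, whose product retains the SREBP complex, was at 67.1 CPM in P14, 335 CPM in the control, 389 CPM after 48 h, 458 CPM after 24 h and 533 CPM after 96 h, so its order of libraries was not that of Srebf1.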
